A study of Mus musculus with 27 samples.

Results

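The mRNAs of 9 kinases of the mitogen-activated protein (MAP) kinase cascades were followed across all 27 libraries of the series. They are the MAP kinase kinase kinase Map3k8, the MAP kinase kinases Map2k1, Map2k3 and Map2k6, the MAP kinases Mapk3, Mapk8, Mapk9 and Mapk14, and the kinase MK2 (Mapkapk2). They were chosen by gene symbol, and each symbol matched 1 row among the 55483 genes of the deposited count table, so all 9 are described here. The cells were RAW264.7, an established line of mouse macrophages. They received vehicle (DMSO), LPS with vehicle, or LPS with TM7nox, for 6 h, with LPS at 1 µg/ml and TM7nox at 10 µM per the labels. LPS is the bacterial lipopolysaccharide that macrophages sense through Toll-like receptor signalling. TM7nox is one of the tanshinone mimics, small molecules made to disturb the contact between the RNA-binding protein HuR and RNA. Each treatment had 4 libraries of total RNA, 4 libraries of RNA recovered with an anti-HuR antibody (RNA immunoprecipitation, RIP) and 1 library of RNA recovered with control IgG. All groups came from the same unmodified cell line. The labels number the samples as replicas without saying that they were separate cultures, so p-values measure the spread between these samples.

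MAP kinase cascades pass a signal through tiers of kinases, each of which phosphorylates the next. In macrophages exposed to LPS, the MAP3 kinase Map3k8 (Tpl2) activates Map2k1 (MEK1), which activates ERK, encoded among others by Mapk3 (ERK1). Map2k3 (MKK3) and Map2k6 (MKK6) activate p38, whose main form is Mapk14, and p38 activates MK2. Mapk8 (JNK1) and Mapk9 (JNK2) are stress-activated kinases that phosphorylate the transcription factor Jun. The p38 and MK2 arm is known for controlling the stability and translation of AU-rich inflammatory mRNAs, and HuR is one of the proteins that bind such mRNAs, at U-rich and AU-rich stretches of their 3′ UTRs. The counts describe mRNA only and say nothing of the phosphorylation of these kinases.

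Since HuR binds U-rich RNA, the 3′ UTR of each gene's canonical GENCODE M39 transcript was read on GRCm39. The windows shown here come from the genes whose RIP levels lay farthest from their RNA levels in DMSO, Mapk8 and Map2k6 above and Mapk3 below, and from Mapk9, the paralogue of Mapk8. Mapk14 and Map2k1 are shown beside them as genes with U-rich windows whose RIP over RNA was not called in DMSO. The windows were picked with the RIP values known and are a description only. Each is the 30-base stretch with the most AUUUA pentamers and then the most U, written as DNA 5′ to 3′ on the strand of the mRNA, and capitals mark ATTTA.
Mapk8: tgtttataagttttttattagaATTTAttt
Mapk9: tttcagaaggaatataattaaATTTATTTA
Map2k6: tATTTAtagggcttttattttttttgagtt
Mapk3: atctctgctgctgtgtctttatctaccctt
Mapk14: ctttcattttattcatgttttgtttgtttt
Map2k1: acttctggttgtatttctatATTTAttttt
They lie on the minus strand at chr14:33103722-33103751 for Mapk8 and chr9:64093334-64093363 for Map2k1, and on the plus strand at chr11:49774664-49774693 for Mapk9, chr11:110404165-110404194 for Map2k6, chr7:126364618-126364647 for Mapk3 and chr17:28964168-28964197 for Mapk14. The Mapk8 window starts 380 bases after the stop codon, the Mapk9 window 548, the Map2k6 window 473, the Mapk3 window 239, the Mapk14 window 18 and the Map2k1 window 604. Of their 30 bases, 21 were U in Mapk14, 19 in Mapk8, Map2k6 and Map2k1, 14 in Mapk3 and 13 in Mapk9. The whole 3′ UTRs were compared with those of all coding genes. Mapk8 had 35.6% U over 1125 bases, more than 91.4% of 20267 coding genes, with 4 ATTTA and 3 matches of TTTTTTT. Of 3′ UTRs of like length, 79.3% held at least 1 ATTTA, with a median of 2, and 41.1% at least 1 TTTTTTT, with a median of 0. The longest annotated Mapk8 3′ UTR, of 4410 bases, has 33.9% U and 7 ATTTA, or 1.59 per kb against 3.56 per kb in the canonical one. Mapk3 had 26.1% U over 612 bases, more than 26.1% of coding genes, and no ATTTA, where 57.9% of 3′ UTRs of like length held at least 1. Mapk9 had 30.3% U and 7 ATTTA over 3444 bases, where 2514 3′ UTRs of like length held a median of 6, and no TTTTTTT, where the median was 4. Map2k6 had 30.7% U and 4 ATTTA over 775 bases, against a median of 1 at like length, and 2 TTTTTTT, against a median of 0. The median U share of all coding genes was 29.3%, and 68.7% of their 3′ UTRs held ATTTA on the mRNA strand. A match of letters is a description and not a binding site.

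Library depth was 2728534 to 28285856 counts in RNA, 19816312 to 41449233 counts in RIP and 8873091 to 24513902 counts in IgG. The shallowest library was RNA DMSO replicate 1, and the next lowest RNA library had 16258731 counts. Levels are CPM on one scale for all libraries, that is, counts divided by the library total times its TMM factor (0.518 to 1.82), which sets the typical gene equal between libraries. Changes are log2 fold changes from edgeR with their standard error (SE), and a gene was called at a Benjamini-Hochberg adjusted p (FDR) under 0.05 over all genes tested. All 8 macrophage markers (Adgre1, Cd68, Csf1r, Lyz2, Itgam, Cd14, Ptprc and Spi1) had a mean over 1 CPM in RNA, where their summed level was 4483 to 5957 CPM. Of 7 markers of other cell types 0 did in RNA, with a sum of 0.234 to 0.384 CPM, and 1 did in RIP. In such bulk samples, fewer cells with a transcript and less of it per cell cannot be told apart.

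Per kilobase of canonical transcript, Mapkapk2 was the most abundant of the 9 mRNAs in unstimulated cells, at 82.7 ± 18.6 CPM per kb (SD, n = 4). Map2k3 followed at 34.3 ± 5.40, Mapk14 at 31.8 ± 4.46, Map2k1 at 27.4 ± 0.964 and Mapk3 at 22.7 ± 4.62 CPM per kb. Mapk8 stood at 6.42 ± 0.433, Mapk9 at 5.44 ± 1.92, Map3k8 at 1.79 ± 0.393 and Map2k6 at 0.701 ± 0.369 CPM per kb. Map2k3 and Mapk14, Mapk14 and Map2k1, Map2k1 and Mapk3, and Mapk8 and Mapk9 differed by less than the sum of their SDs. The first and the last 2 places were the same per kilobase of all annotated exons, while Map2k3 moved to the fifth place at 9.16 CPM per kb and Mapk9 passed Mapk8 at 2.88 against 1.44. In LPS the canonical order was Mapkapk2 at 266, Map2k1 at 73.3, Map2k3 at 39.6, Mapk3 at 22.6, Mapk14 at 21.9, Map3k8 at 11.2, Mapk8 at 6.74 and Mapk9 at 4.87 CPM per kb, with Map2k6 last, so Map3k8 stood above both JNK genes there.

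**Figure D1:**
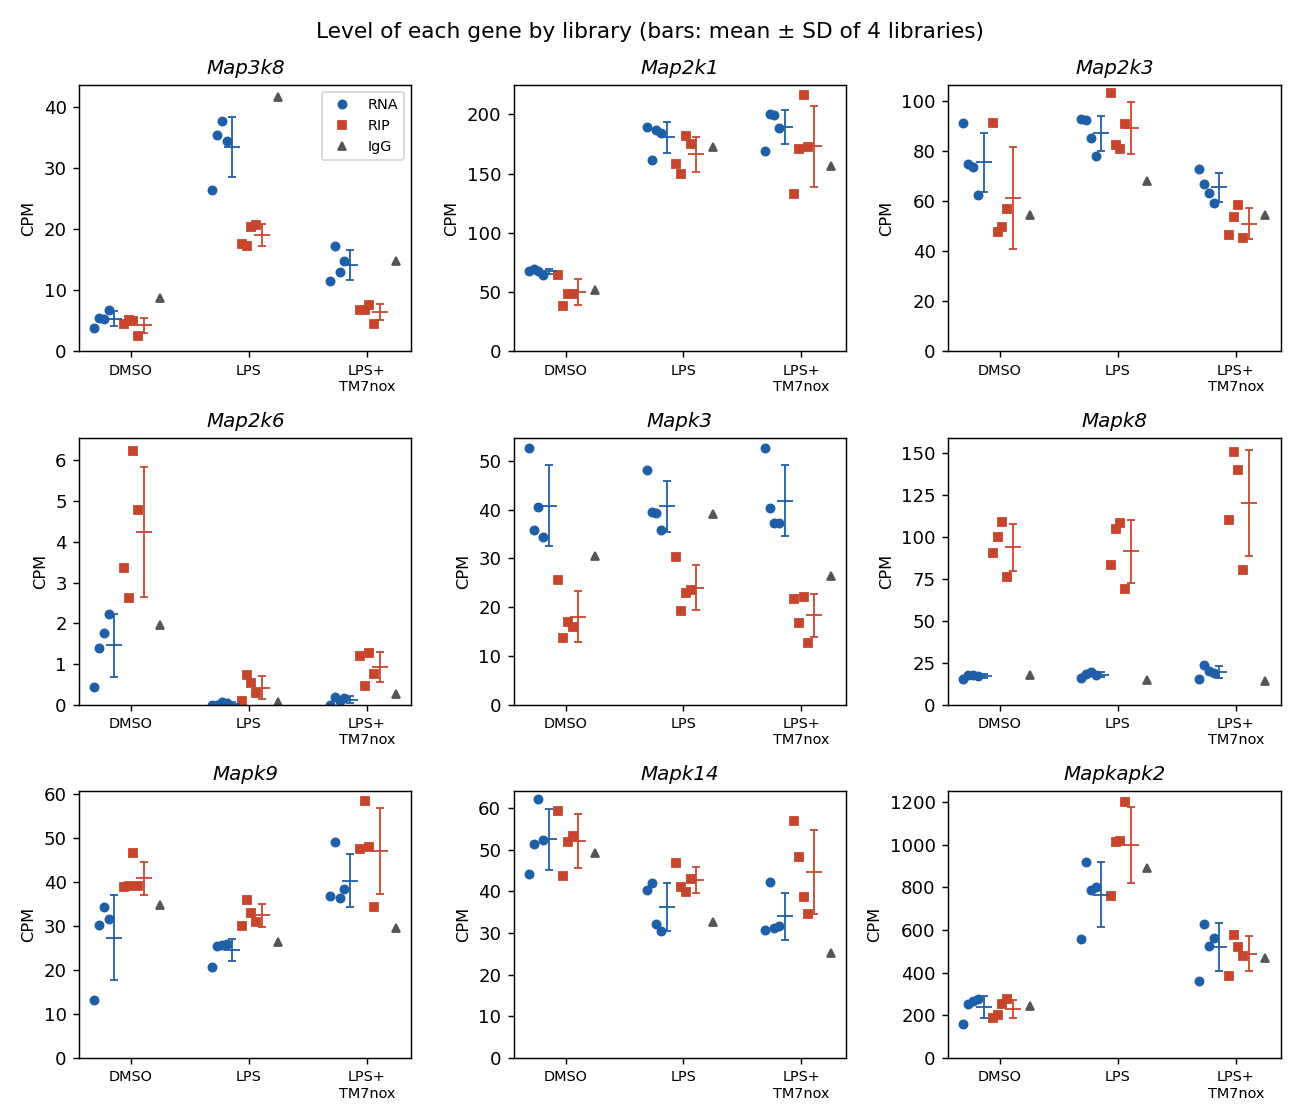
CPM of each gene (y axis, linear, its own range per panel) in every library by treatment (x axis). Circles are RNA, squares RIP and triangles IgG, with replicates 1 to 4 from left to right and bars giving the mean ± SD of 4 libraries. Map3k8, Map2k1 and Mapkapk2 are highest with LPS or with LPS and TM7nox in every assay, Map2k6 is highest in DMSO, and Mapk8 stands at 68.8 to 151 CPM in RIP against 15.3 to 23.8 CPM in RNA.

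LPS was compared with DMSO to measure how the kinase mRNAs responded to stimulation. In total RNA, 3 of the 9 were called higher and 2 lower. Among the 12369 genes tested, 20.2% were called higher, 21.7% lower and 42% in either direction. Map3k8, Mapkapk2 and Map2k1 rose, and Map2k6 and Mapk14 fell. Map2k6 passed the count filter in RNA through its DMSO libraries alone, so it could only be called lower against DMSO. Without it 4 of 8 were called, near the background. The 9 had a median log2 change of 0.01, against -0.04 for all genes tested. In RIP the same comparison called 3 higher and 2 lower, where 23.5% of 13614 genes were called higher, 21.2% lower and 44.7% in all. There Map3k8, Mapkapk2 and Map2k1 rose and Map2k6 and Mapk9 fell. In RIP, Map2k6 was over the cut of the count filter in 4 DMSO libraries and in 1 LPS library. Without it 4 of 8 were called there too.

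LPS with TM7nox was compared with LPS alone to measure the effect of the compound in stimulated cells. The LPS libraries serve as the reference here and as the test group above, so the 2 comparisons are not independent. In RNA 1 of the 9 was called higher (Mapk9) and 1 lower (Map3k8), where 7.37% of all genes tested were called higher, 6.4% lower and 13.8% in all. In RIP 1 was called higher (Mapk9) and 3 lower (Map3k8, Mapkapk2 and Map2k3), where 8.64% of genes were called higher, 7.61% lower and 16.2% in all. Replicates of the same number deviated together, and with the replicate number as a block the RNA count rose from 2 to 4 genes, by Map2k3 and Mapkapk2, while the share of all genes called rose to 25%. For this comparison in RIP it raised the count from 4 to 6, with Mapk8 and Map2k6 called higher too, and 33.6% of all genes called. The block also raised the RIP count for LPS against DMSO from 5 to 8 genes, by Map2k3, Mapk3 and Mapk14, and the share of all genes to 59.3%.

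Against DMSO, cells given LPS with TM7nox had 3 genes called higher and 2 lower in RNA, where 23.7% of genes were called higher, 23.6% lower and 47.3% in all. The lower ones were Mapk14 and Map2k6, which again could only be called lower in RNA, so that 4 of the other 8 were called. In RIP the counts were 3 higher and 1 lower, where 25.1% of genes were called higher, 23.1% lower and 48.1% in all. The genes called higher were Map3k8, Mapkapk2 and Map2k1 in both assays.

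**Figure D2:**
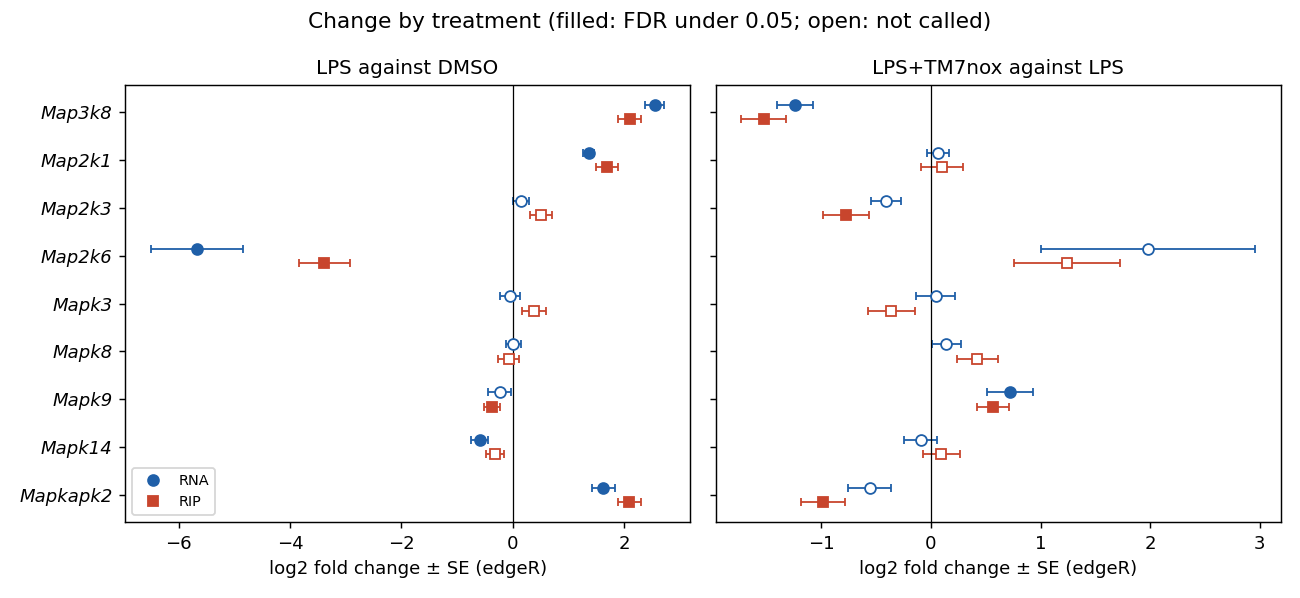
Log2 fold change ± SE (x axis, edgeR) of each gene (y axis) for LPS against DMSO on the left and LPS with TM7nox against LPS on the right. Circles are RNA and squares RIP, and filled symbols passed an FDR of 0.05. Map3k8 lies at 2.55 in RNA on the left and at -1.24 on the right, while Map2k1 lies at 1.36 on the left and at 0.07 on the right.

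Map3k8, the LPS-responsive kinase at the top of the ERK arm, had the largest rise of the 9 in RNA and the largest fall with TM7nox in both assays. The gene lies on GRCm39 at 4331327 to 4353463 of chromosome 18, on the minus strand. In RNA its 4 libraries gave 3.85, 5.52, 5.34 and 6.73 CPM in DMSO, 26.5, 35.4, 37.7 and 34.4 CPM in LPS, and 11.5, 17.2, 13.1 and 14.8 CPM in LPS with TM7nox. The 3 groups did not overlap. LPS raised Map3k8 RNA 5.85-fold (log2 2.55, SE 0.174, FDR 6.198e-08), a larger rise than that of 95.8% of genes tested. TM7nox lowered it 2.36-fold from the LPS level (log2 -1.24, SE 0.162, FDR 0.0002073), which left it 2.48-fold above DMSO (log2 1.31, FDR 2.283e-05). In RIP the means were 4.30 ± 1.22, 19.0 ± 1.77 and 6.45 ± 1.31 CPM (SD, n = 4 each), a rise of 2.10 with LPS (FDR 6.118e-07) and a change of -1.53 with TM7nox (FDR 0.0001403) on the log2 scale. The LPS group did not overlap the other 2 in RIP. Within replicates 1 and 2 alone the fall with TM7nox in RNA was -1.10 and was not called (FDR 0.124).
RIP in LPS with TM7nox was 1.49-fold above DMSO (log2 0.58, FDR 0.02753), with overlapping libraries. That call was lost without RIP LPS with TM7nox replicate 1 (FDR 0.0621), 2 (0.0555) or 3 (0.0647), without RIP DMSO replicate 4 (log2 0.38, FDR 0.0886), and within replicates 1 and 2 (0.43, FDR 0.165) or 3 and 4 (0.72, FDR 0.0813), and with no count filter (FDR 0.0708). Exons of the antisense gene 4833419F23Rik overlap Map3k8, and its mean level was 0.0242 to 0.585 CPM in RNA and RIP.

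Map2k1, which encodes MEK1, rose with LPS, and no change with TM7nox was called. It lies on GRCm39 at 64093048 to 64160992 of chromosome 9, on the minus strand. Its RNA values by library were 68.3, 69.9, 67.6 and 64.3 CPM in DMSO, 190, 162, 187 and 184 CPM in LPS, and 169, 200, 199 and 189 CPM in LPS with TM7nox. DMSO did not overlap the other groups, which overlapped each other. LPS raised it 2.57-fold (log2 1.36, SE 0.102, FDR 1.498e-07). The difference between LPS with TM7nox and LPS was 0.07 ± 0.1 on the log2 scale (SE, FDR 0.744). In RIP the means were 50.1 ± 10.8, 166 ± 14.8 and 173 ± 34.1 CPM (SD, n = 4), a rise of 1.70 with LPS (SE 0.194, FDR 3.73e-06), and 0.10 with TM7nox (FDR 0.762). Snapc5 overlaps Map2k1 exons on the other strand and had means of 12.5, 7.54 and 6.92 CPM in RNA from DMSO, LPS and LPS with TM7nox.

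The 2 upstream kinases of p38 differed. Map2k3 lies on GRCm39 at 60821766 to 60843637 of chromosome 11, on the plus strand. Its RNA values by library were 91.2, 74.8, 73.5 and 62.4 CPM in DMSO, 92.7, 92.5, 85.1 and 78.0 CPM in LPS, and 72.9, 66.9, 63.1 and 59.3 CPM in LPS with TM7nox. Only LPS and LPS with TM7nox did not overlap. Neither change was called in RNA, with 0.15 for LPS (FDR 0.417) and -0.41 for TM7nox (SE 0.138, FDR 0.0666). With the replicate block the latter passed (-0.41, FDR 0.002515), as it did with DESeq2 (-0.43, FDR 0.02882) and within replicates 3 and 4 (-0.40, FDR 0.01626), and the block also called LPS with TM7nox against DMSO (-0.25, FDR 0.01879). In RIP the libraries gave 91.1, 47.6, 49.5 and 56.8 CPM in DMSO, 103, 82.3, 80.7 and 90.8 CPM in LPS, and 46.3, 53.7, 58.6 and 45.4 CPM in LPS with TM7nox. Replicate 1 was the highest in DMSO and in LPS but not with TM7nox. Map2k3 fell 1.71-fold with TM7nox in RIP (log2 -0.77, SE 0.206, FDR 0.01751), while its 0.51 with LPS missed the threshold (FDR 0.0534).
With the block, or without RIP DMSO replicate 1, the LPS change was called (0.54, FDR 0.008632, and 0.73, FDR 0.003582). The TM7nox call was lost without RIP LPS replicate 1 (-0.67, FDR 0.0621) and within replicates 1 and 2 (-0.90, FDR 0.108) or 3 and 4 (-0.60, FDR 0.117). The antisense gene Map2k3os shares exons with Map2k3. Its means in DMSO, LPS and LPS with TM7nox were 3.97, 3.01 and 6.42 CPM in RNA and 4.42, 4.38 and 8.8 CPM in RIP. Whether its reads bear on the Map2k3 values was not tested.

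Map2k6, on GRCm39 at 110289942 to 110416348 of chromosome 11 on the plus strand, was the scarcest of the 9 and was nearly undetected after LPS. In RNA it gave 0.428, 1.39, 1.77 and 2.23 CPM in DMSO. In LPS 2 libraries had no count and the others 0.0705 and 0.0321 CPM. With TM7nox 1 library had no count and the others gave 0.188, 0.0999 and 0.172 CPM. These values rest on 178, 3 and 12 counts in all, so the DMSO level was 64 times the LPS level with a 95% exact interval of 21.5 to 313 that covers counting error only. Map2k6 passed the count filter in RNA through its 4 DMSO libraries alone, so only a lower level in the other groups could be seen for it. The edgeR call was lower in LPS (FDR 7.601e-05) and in LPS with TM7nox against DMSO (log2 -3.70, FDR 0.0005226), and the fitted size of the LPS change depends on the prior count. In RIP, where 477, 31 and 78 counts were found, the means were 4.25 ± 1.60, 0.412 ± 0.28 and 0.924 ± 0.378 CPM (SD, n = 4). Map2k6 fell 10.5-fold with LPS there (log2 -3.39, SE 0.459, FDR 2.193e-05) and DMSO did not overlap the other groups.
TM7nox against LPS was not called in RNA (log2 1.98, SE 0.976, FDR 0.22). There 12 counts against 3 gave a ratio of 4.51, with a 95% exact interval of 1.22 to 24.9 for counting error. In RIP the difference was 1.24 (SE 0.482, FDR 0.09), which passed with the replicate block (1.24, FDR 0.04397) and without RIP LPS replicate 2 (1.72, FDR 0.03656). Within replicates 1 and 2, which include the shallowest library, the RNA changes against DMSO were -7.58 for LPS and -3.24 for LPS with TM7nox and were not called (FDR 0.0718 and 0.228).

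Mapk3, the ERK1 gene, lies on GRCm39 at 126358723 to 126364991 of chromosome 7, on the plus strand, and had close RNA levels in all 3 treatments, with no change called. Its means were 40.8 ± 8.31, 40.7 ± 5.26 and 41.9 ± 7.34 CPM (SD, n = 4) in DMSO, LPS and LPS with TM7nox, with overlapping groups. The log2 changes were -0.05 ± 0.178 with LPS and 0.04 ± 0.176 with TM7nox (SE), neither called. In RIP the means were 18.0 ± 5.17, 23.98 ± 4.56 and 18.3 ± 4.42 CPM. The RIP change with LPS was 0.38 (SE 0.213, FDR 0.158), which passed with the replicate block (0.40, FDR 0.017) and without RIP DMSO replicate 1 (0.56, FDR 0.03243).

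The JNK genes are given in turn, and a difference between their treatment changes was not tested. Mapk8 lies on GRCm39 at 33099855 to 33169157 of chromosome 14, on the minus strand. Its RNA libraries gave 15.4, 17.8, 17.8 and 16.8 CPM in DMSO, 16.0, 18.4, 19.2 and 17.6 CPM in LPS, and 15.3, 23.8, 20.2 and 19.1 CPM in LPS with TM7nox, and all 3 groups overlapped. No treatment change was called, with 0.01 ± 0.133 for LPS and 0.14 ± 0.132 for TM7nox against LPS (SE). In RIP the libraries gave 90.3, 99.7, 109 and 75.9 CPM, then 83.0, 105, 109 and 68.8 CPM, and 110, 151, 140 and 80.4 CPM in the same order. Replicate 4 was the lowest in each RIP group. TM7nox against LPS was 0.42 in RIP (SE 0.186, FDR 0.132), which passed with the replicate block (FDR 0.007738), and LPS with TM7nox against DMSO was 0.35 (FDR 0.129), which passed likewise (0.34, FDR 0.01387).

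Mapk9, on GRCm39 at 49737514 to 49779038 of chromosome 11 on the plus strand, had its lowest mean in LPS and its highest in LPS with TM7nox in both assays. The RNA libraries gave 13.1, 30.1, 34.3 and 31.5 CPM in DMSO, 20.6, 25.4, 25.6 and 25.9 CPM in LPS, and 36.7, 49.1, 36.4 and 38.4 CPM in LPS with TM7nox. The third group lay above both others, and the low DMSO value is that of the shallowest library. TM7nox raised Mapk9 RNA 1.65-fold from LPS (log2 0.72, SE 0.21, FDR 0.03435). That call was lost on leaving out any one of RNA LPS replicates 1 to 4 (FDR 0.0867, 0.074, 0.0663 and 0.0709) or RNA LPS with TM7nox replicates 2 to 4 (0.103, 0.0508 and 0.0668), and within replicates 1 and 2 (log2 0.90, FDR 0.313). The change with LPS was -0.23 (FDR 0.411). Without the shallowest library, RNA DMSO replicate 1, it was -0.42 and called (FDR 0.01666), as it was within replicates 3 and 4 (-0.36, FDR 0.007942), and within replicates 1 and 2 it was 0.04. LPS with TM7nox against DMSO was 0.49 (FDR 0.0704), called with the block (0.51, FDR 0.01925), with DESeq2 (0.52, FDR 0.03206), with no count filter (0.54, FDR 0.01176), just so with RLE scaling (FDR 0.04999) and without RNA DMSO replicate 3 (0.60, FDR 0.04784).
In RIP the libraries gave 38.9, 38.9, 46.4 and 39.0 CPM in DMSO, 29.8, 35.9, 32.8 and 30.9 CPM in LPS, and 47.4, 58.3, 47.9 and 34.3 CPM in LPS with TM7nox. DMSO and LPS did not overlap. Mapk9 fell 1.29-fold with LPS (log2 -0.37, SE 0.145, FDR 0.0497) and rose 1.48-fold with TM7nox (0.57, SE 0.145, FDR 0.01441). The first call was lost on leaving out RIP LPS replicate 1, 3 or 4 (FDR 0.0842, 0.0861 and 0.0703) or RIP DMSO replicate 2, 3 or 4 (0.0534, 0.084 and 0.0608). Both were lost within replicates 1 and 2 (-0.30, FDR 0.325, and 0.68, FDR 0.0937) and within 3 and 4 (-0.51, FDR 0.0606, and 0.49, FDR 0.149), and with no count filter (FDR 0.292 and 0.103). An antisense gene of GENCODE M39, Gm72048, overlaps Mapk9 exons and had no row matched in the count table.

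Mapk14, the p38 alpha gene on GRCm39 at 28910268 to 28967381 of chromosome 17 on the plus strand, fell in RNA. It gave 44.3, 51.5, 62.3 and 52.3 CPM in DMSO, 40.4, 42.0, 32.2 and 30.6 CPM in LPS, and 30.6, 42.4, 31.3 and 31.8 CPM in LPS with TM7nox. Every DMSO library was above every other. LPS lowered Mapk14 RNA 1.51-fold (log2 -0.59, SE 0.153, FDR 0.006326), and LPS with TM7nox stood 1.61-fold under DMSO (-0.68, FDR 0.002049). Between the 2 LPS groups the difference was -0.09 ± 0.152 (SE), not called. Within replicates 1 and 2 the changes against DMSO were -0.24 and -0.42 and were not called (FDR 0.579 and 0.255). In RIP the means were 52.1 ± 6.49, 42.7 ± 3.04 and 44.7 ± 10.0 CPM (SD, n = 4). The RIP change with LPS was -0.32 (SE 0.166, FDR 0.134), called with the replicate block (-0.31, FDR 0.02889).

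Mapkapk2, which encodes MK2, the kinase downstream of p38, had the highest level per kilobase of the 9 in RNA of every treatment. It lies on GRCm39 at 130981423 to 131025593 of chromosome 1, on the minus strand. In RNA the libraries gave 159, 252, 267 and 275 CPM in DMSO, 558, 919, 788 and 801 CPM in LPS, and 363, 626, 526 and 563 CPM in LPS with TM7nox. Replicate 1 was the lowest in each group, and only the 2 LPS groups overlapped. LPS raised Mapkapk2 3.09-fold (log2 1.63, SE 0.201, FDR 1.786e-05), and LPS with TM7nox stood 2.10-fold above DMSO (1.07, FDR 0.0004833). TM7nox against LPS was -0.56 in RNA (SE 0.196, FDR 0.076), and every same-numbered pair was lower with TM7nox. With the replicate block that difference was called (-0.57, FDR 0.0004475), as it was without RNA LPS replicate 1 (-0.68, FDR 0.04164), within replicates 3 and 4 (-0.53, FDR 0.001494), with DESeq2 (-0.58, FDR 0.02959) and with no count filter (-0.56, FDR 0.01025). In RIP the libraries gave 185, 200, 252 and 275 CPM in DMSO, 762, 1015, 1019 and 1200 CPM in LPS, and 383, 575, 522 and 476 CPM in LPS with TM7nox, and no groups overlapped. LPS raised it 4.28-fold in RIP (2.10, SE 0.206, FDR 6.862e-07), and TM7nox lowered it 1.98-fold (-0.99, SE 0.2, FDR 0.003455), a call lost within replicates 1 and 2 (-0.90, FDR 0.118). The IgG libraries, 1 per treatment, gave 241, 890 and 469 CPM in the same order, and RIP was not called against IgG.

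RIP was compared with RNA of the same treatment to measure how much of each mRNA was recovered with the anti-HuR antibody relative to its level. The scale is relative to the typical gene. Of the 9, 3 were called higher in RIP and 1 lower in DMSO, where 37% of 14311 genes were called higher, 33.4% lower and 70.4% in all. In LPS 2 were called higher and 2 lower, where 32.9% were called higher, 30.8% lower and 63.7% in all. In LPS with TM7nox 3 were called higher and 2 lower, where 35.2% were called higher, 34.8% lower and 69.9% in all. The genes higher in every treatment were Mapk8 and Map2k6, and the gene lower in every treatment was Mapk3. In LPS and in LPS with TM7nox, 0 of the 4 RNA libraries held Map2k6 over the count filter's cut. A lower RIP than RNA could therefore not be seen for Map2k6 in those treatments, so its direction there was fixed beforehand.

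Mapk8 had the highest RIP over RNA of the 9 in DMSO, and the second highest after the scarce Map2k6 in both LPS groups. Its log2 RIP over RNA was 2.57 in DMSO (SE 0.181, FDR 3.995e-12), 2.38 in LPS (FDR 1.611e-11) and 2.68 in LPS with TM7nox (FDR 1.446e-12), which is 5.95-, 5.2- and 6.39-fold. The 12 same-numbered pairs gave ratios of 3.91 to 7.21, and replicate 4 gave the lowest in each treatment. This recovery exceeded that of 83.3% to 84.2% of genes tested, so many genes were recovered at a higher ratio. Mapk9 was 1.58-fold higher in RIP in DMSO (0.66, FDR 0.00667), and not called in LPS (0.43, FDR 0.073) or LPS with TM7nox (0.30, FDR 0.203). The Mapk9 ratio of replicate 1 in DMSO, which holds the shallowest RNA library, was 2.98, and those of the other 3 pairs were 1.24 to 1.35. With the replicate block the LPS value was called (0.44, FDR 0.02671), as it was without RIP LPS replicate 1 (0.49, FDR 0.04248), and the DMSO call was lost within replicates 1 and 2 (0.87, FDR 0.0624) and with no count filter (0.46, FDR 0.0833).

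The ratio of Mapk8 to Mapk9 counts within a library needs no scaling between libraries, and this pair was chosen after its values were seen. The RNA libraries from DMSO gave 0.520 to 1.18, those from LPS 0.678 to 0.777 and those from LPS with TM7nox 0.416 to 0.556. In RIP it was 1.95 to 2.56, 2.23 to 3.31 and 2.33 to 2.92 in the same order. The 3 IgG libraries gave 0.510, 0.567 and 0.473. RIP libraries lay above all RNA and IgG libraries, which restates within a library the higher RIP over RNA of Mapk8 and is no separate evidence.

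**Figure D3:**
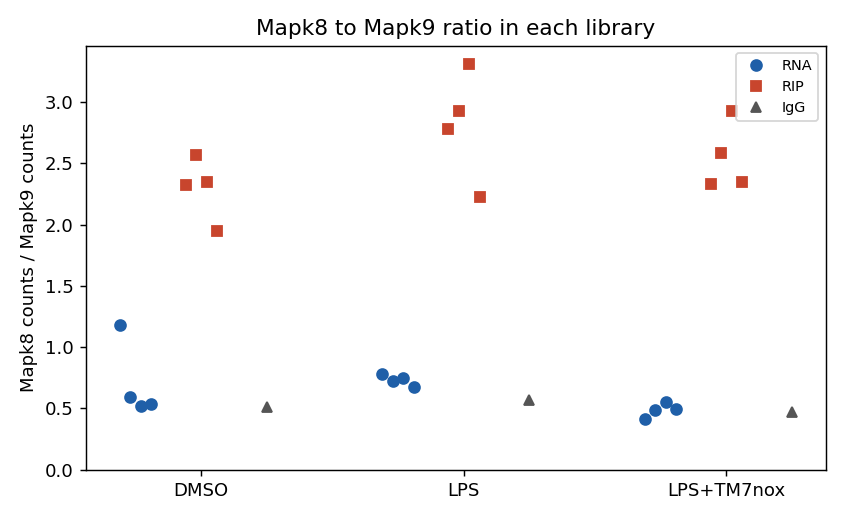
Counts of Mapk8 divided by counts of Mapk9 (y axis, linear from 0) in each library by treatment (x axis). Circles are RNA, squares RIP and triangles IgG. The 12 RIP libraries sit between 1.95 and 3.31, above the RNA libraries at 0.416 to 1.18 and the IgG libraries at 0.473 to 0.567.

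Map2k6 was also higher in RIP, by 1.53 in DMSO (SE 0.491, FDR 0.007658), 3.73 in LPS (SE 0.8292, FDR 0.000371) and 3.001 in LPS with TM7nox (SE 0.636, FDR 0.000184) on the log2 scale. In LPS this sets 31 RIP counts against 3 RNA counts, a ratio of 15.2 with a 95% exact interval of 4.75 to 77.9 for counting error. In LPS with TM7nox the ratio was 8.42 (4.56 to 17) from 78 and 12 counts. The calls in DMSO and in LPS with TM7nox were lost within replicates 1 and 2 (FDR 0.201 and 0.0502). Mapk14 lay at 0.27 in LPS (FDR 0.165), which passed with DESeq2 (0.44, FDR 0.01218) and within replicates 3 and 4 (0.40, FDR 0.03869). In LPS with TM7nox it was called at 0.47 (SE 0.168, FDR 0.01532), a call lost without RNA LPS with TM7nox replicate 1 (0.39, FDR 0.0608) and within replicates 1 and 2 (0.56, FDR 0.0906) or 3 and 4 (0.31, FDR 0.0931), and with no count filter (0.30, FDR 0.316).

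Mapk3 and Map3k8 were lower in RIP. Mapk3 was 2.04-fold lower in DMSO (log2 -1.03, SE 0.181, FDR 1.803e-05), 1.66-fold in LPS (-0.73, FDR 0.0009887) and 2.16-fold in LPS with TM7nox (-1.11, FDR 6.764e-06), in 12 of 12 pairs and with no overlap in any treatment. Map3k8 was not called in DMSO (-0.25, FDR 0.306), and was 1.74-fold lower in LPS (-0.80, SE 0.201, FDR 0.001267) and 2.09-fold in LPS with TM7nox (-1.06, FDR 7.051e-05). Its DMSO value was -0.59 and called within replicates 3 and 4 (FDR 0.04796), and 0.06 within replicates 1 and 2. The DMSO pairs gave RIP over RNA ratios of 1.17, 0.932, 0.940 and 0.373 in replicates 1 to 4, so replicate 4 alone stood low.

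The 3 remaining mRNAs were recovered close to their RNA level. Mapkapk2 lay at 0.05, 0.40 and -0.01 on the log2 scale in DMSO, LPS and LPS with TM7nox (SE 0.226 each), and was called in LPS with the replicate block (0.41, FDR 0.005281), without RIP LPS replicate 1 (0.54, FDR 0.03196) and within replicates 3 and 4 (0.48, FDR 0.0327). Map2k1 lay at -0.31, -0.09 and -0.05, and its DMSO value was called without RNA DMSO replicate 1 (-0.37, FDR 0.04578), without RIP DMSO replicate 1 (-0.46, FDR 0.01138), within replicates 3 and 4 (-0.37, FDR 0.0317) and with no count filter (-0.53, FDR 0.02994). Map2k3 lay at -0.16, 0.07 and -0.28, and its DMSO value was called without RIP DMSO replicate 1 (-0.42, FDR 0.01028). The scaling bears on these values. RLE in place of TMM moved the median of all genes by 0.156, 0.176 and 0.22 in the 3 treatments. It changed Mapkapk2 and Mapk14 in LPS (0.58 and 0.44) and Mapk9 in LPS and LPS with TM7nox (0.61 and 0.53) to called. It left the directions of Mapk8, Map2k6, Mapk3 and Map3k8 as given, with Map3k8 at -0.62 in LPS.

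**Figure D4:**
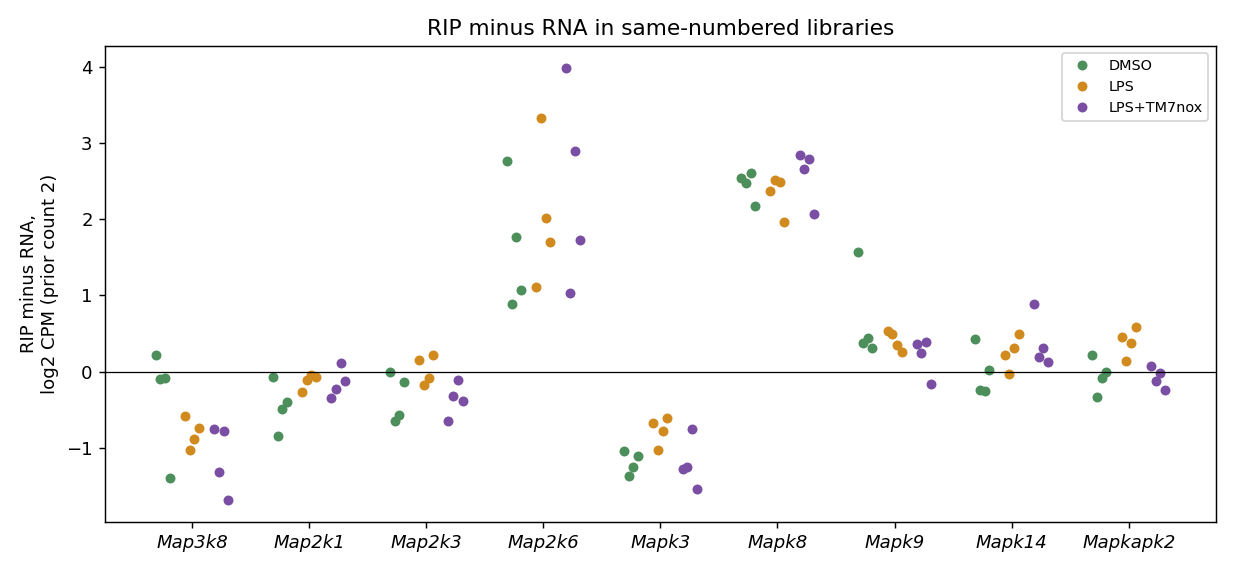
Log2 CPM in RIP minus log2 CPM in RNA (y axis, prior count of 2) of same-numbered libraries, by gene (x axis) and treatment (colour), 4 points each. All Mapk8 and Map2k6 points are above 0 and all Mapk3 points are below 0. The Map2k6 points from LPS and LPS with TM7nox rest on few RNA counts.

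Whether treatment changed the recovery itself was tested as the difference of RIP over RNA between treatments. None of the 9 was called for LPS against DMSO, where 0.0419% of 14311 genes were called, or for LPS with TM7nox against LPS, where 0.00699% were called, both by edgeR. At an unadjusted p under 0.05 there was 1 of the 9 in the first, Map2k6, with an edgeR FDR of 0.643, and 0 in the second, beside 1041 and 771 of all 14311 genes. DESeq2 and the edgeR fit with the replicate block called 0 of the 9 in both. For Map3k8 the changes were -0.55 ± 0.291 with LPS and -0.27 ± 0.287 with TM7nox on the log2 scale (SE). For Mapkapk2 they were 0.36 ± 0.319 and -0.41 ± 0.319, and for Mapk8 -0.19 ± 0.242 and 0.30 ± 0.241. The fitted falls of Map3k8, Mapkapk2 and Map2k3 with TM7nox were larger in RIP than in RNA, and the difference between the assays was not called for any of the 3.

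IgG libraries measured the background of the pull-down. Over the 3 treatments, 4 of the 9 were called higher with anti-HuR than with IgG and 2 lower, where 33.8% of 14973 genes were called higher, 34.2% lower and 68.1% in all. Every IgG library is labelled replica 3, so antibody and replicate are partly confounded. Mapk8 was 6.40-fold higher with anti-HuR (log2 2.68, SE 0.21, FDR 1.447e-09). Its IgG libraries gave 17.7, 14.9 and 14.0 CPM, close to the 15.3 to 23.8 CPM of RNA and below every RIP library. Map2k6 was 2.91-fold higher (1.54, FDR 0.006499), from IgG levels of 1.95, 0.0646 and 0.254 CPM that rest on 75, 2 and 3 counts. Mapk9 was 1.31-fold higher (0.39, FDR 0.01946) and lost its call without the IgG library of LPS with TM7nox (0.23, FDR 0.233). Mapk14 was 1.33-fold higher (0.41, FDR 0.0361). It lost its call with the replicate block (0.20, FDR 0.281), without RIP LPS replicate 1 (0.39, FDR 0.0502), and without the IgG library of LPS (0.45, FDR 0.0876) or of LPS with TM7nox (0.19, FDR 0.394).

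Map3k8 and Mapk3 were lower with anti-HuR than with IgG. Map3k8 gave 8.74, 41.6 and 14.7 CPM in IgG from DMSO, LPS and LPS with TM7nox, each above all 4 RIP libraries of its treatment, and was 2.17-fold lower with anti-HuR (log2 -1.12, SE 0.159, FDR 3.923e-06). Its IgG libraries followed the treatments in the order of the RNA libraries. Mapk3 gave 30.5, 39.1 and 26.4 CPM in IgG, again above all RIP libraries of each treatment, and was 1.59-fold lower with anti-HuR (-0.67, SE 0.175, FDR 0.002368). Mapkapk2 (0.05), Map2k1 (0.01) and Map2k3 (0.16) were not called. In DMSO, LPS and LPS with TM7nox, IgG levels were 241, 890 and 469 CPM for Mapkapk2 and 51.7, 173 and 156 CPM for Map2k1. For Map2k3 they were 54.5, 67.8 and 54.3 CPM. RIP of these 3 genes was not told apart from IgG, so their RIP changes are not shown to be changes of HuR-bound mRNA.

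The U share of the 3′ UTR and RIP over RNA were set side by side over the 10980 coding genes with both values. Across genes, which are not independent replicates and share the same libraries, Pearson's r was 0.259 and Spearman's rho 0.274 in DMSO. The 684 genes within 1 percentage point of the Mapk8 U share had a median log2 RIP over RNA of 0.69 (quartiles -0.47 and 2.25), and Mapk8 exceeded 78.2% of them. Mapk14, with a canonical 3′ UTR of 173 bases and 36.4% U, lay at 0.10, above 39.3% of the 501 genes near its own share. Its longest annotated 3′ UTR, of 2146 bases, has 27.9% U. Map3k8, with 33.8% U and 4 ATTTA over 979 bases, and Map2k1, with 34.0% U, were U-rich too, and lay at -0.25 and -0.31, above 33.2% and 31.9% of the genes near their shares. Mapk3 lay at -1.03 with its 26.1% U, where the median of genes of like share was -0.52. Map2k6 lay at 1.53 with 30.7% U, above 74.7% of the genes near its share.

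**Figure D5:**
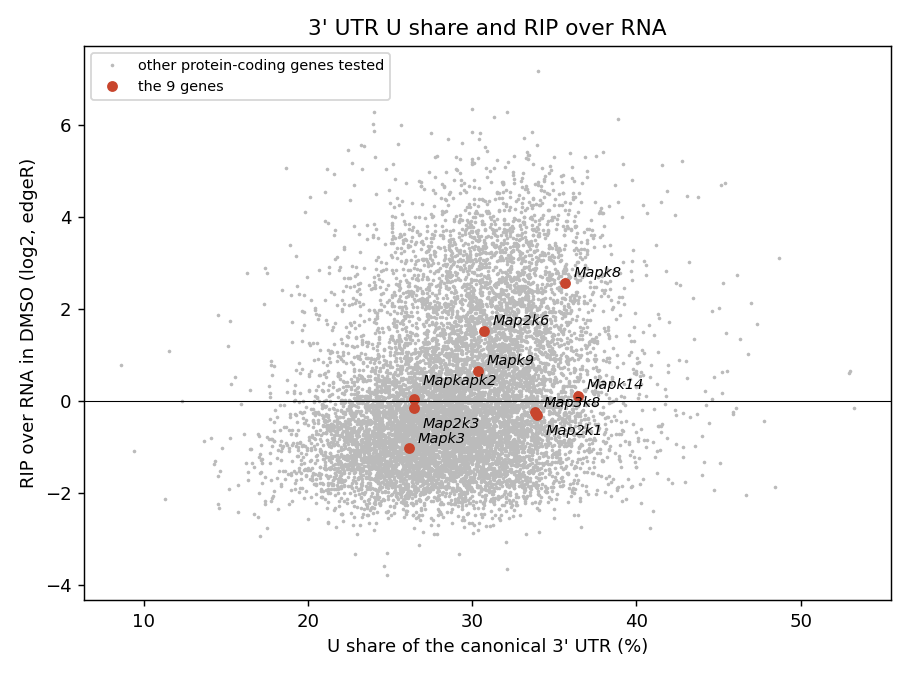
U share of the canonical 3′ UTR in percent (x axis) and log2 RIP over RNA in DMSO (y axis) for 10980 coding genes in grey and the 9 kinase genes in red. Mapk8 sits at 35.6% and 2.57, Mapk14 at 36.4% and 0.10, and Mapk3 at 26.1% and -1.03, inside a broad cloud.

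Another 53 genes of the same cascades gave the setting of the 9. Mapk10 (JNK3) and the p38 genes Mapk12 and Mapk13 passed the count filter in no fit. In RNA, 40 of them were tested and LPS raised 8 and lowered 12, beside 20.2% and 21.7% of all genes tested. Nfkb1, whose p105 product binds and holds the Map3k8 protein, rose from 71.4 ± 10.3 to 478 ± 56.3 CPM (SD, n = 4; log2 2.68, SE 0.164, FDR 2.036e-08). Tnip2 (ABIN-2), the other partner of Map3k8, rose from 17.2 ± 4.01 to 38.9 ± 8.32 CPM (1.15, FDR 0.0001888). The MAP kinase kinase Map2k4, which activates JNK, rose by 0.83 (FDR 0.0008934), and Tab2, an adaptor of the kinase TAK1, by 0.74 (FDR 0.0001639). The largest falls were those of the MAP3 kinases Map3k4 (-1.59, FDR 5.145e-07) and Map3k5 (-1.23, FDR 0.000375), of Mknk2 (-1.25, FDR 6.835e-05), which phosphorylates the cap-binding protein eIF4E, and of Tab1 (-1.05, FDR 0.01177). Of the 20 MAP3 kinases and TAK1 partners, 19 were tested, with 3 called higher, 8 lower and a median of -0.34, beside the same shares of all genes and their median of -0.04.

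TM7nox against LPS in RNA called 3 of the 40 genes higher and 3 lower, beside 7.37% and 6.4% of all genes. With the replicate block these were 7 and 4 genes, beside 12.3% and 12.7%. Tnip2 fell with TM7nox (log2 -0.59, SE 0.181, FDR 0.04343), as did Map2k4 (-0.53, FDR 0.04024) and the MAP3 kinase Map3k11 (-0.83, FDR 0.006831). Nfkb1, named here outside the naming rule given below, stood at 392 ± 87.5 CPM (SD, n = 4) with TM7nox. Against DMSO, 11 of the 40 were higher and 11 lower with LPS and TM7nox in RNA, near the 23.7% and 23.6% of all genes. The rises were led by Nfkb1 (2.40), the RSK kinase gene Rps6ka2 (2.15), Spag9 (0.94) and Tab2 (0.76), and the falls by Map3k4 (-1.17), Map3k5 (-1.06), Map3k10 (-0.94) and Map3k1 (-0.73), all with an FDR of at most 0.002786.

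In RIP, 43 genes were tested. LPS raised 12 and lowered 11, beside 23.5% and 21.2% of all genes. Nfkb1 (2.92), Rps6ka2 (1.43), Tnip2 (1.32) and Tab2 (1.245) led the rises, and Mknk2 (-1.50), Map3k5 (-1.23), Map3k4 (-0.96) and Map3k1 (-0.85) the falls, with an FDR of at most 0.008547. LPS with TM7nox against DMSO raised 11 and lowered 7, beside 25.1% and 23.1%. Nfkb1 (2.77), Rps6ka2 (2.27), the atypical MAP kinase gene Mapk6 (1.12) and Tab2 (0.91) led the rises, and Map3k14 (-1.21), Map3k4 (-0.79) and Map3k7 (-0.45) the falls, with an FDR of at most 0.03601. TM7nox against LPS raised 7 and lowered 4, beside 8.64% and 7.61%, and with the replicate block 14 and 9, beside 16.6% and 17%. The RIP falls with TM7nox were led by Map3k11 (-1.09, FDR 0.00692), Tnip2 (-0.91, FDR 0.00367), the MSK2 gene Rps6ka4 (-0.78, FDR 0.03576) and Map2k4 (-0.56, FDR 0.04773). The RIP rises were led by the MAP3 kinase Map3k2 (0.82, FDR 0.005497), the JNK scaffold Spag9 (0.72, FDR 0.01119) and Nlk (0.54, FDR 0.04625).

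RIP over RNA was higher for 19 and lower for 9 of 44 tested cascade genes in DMSO, beside 37% and 33.4% of all genes. The counts were 18 and 7 in LPS, beside 32.9% and 30.8%, and 18 and 10 in LPS with TM7nox, beside 35.2% and 34.8%. Against IgG, 17 were higher and 14 lower, beside 33.8% and 34.2%. The change of RIP over RNA was called for 0 of 44 with LPS and 0 with TM7nox by edgeR, with 5 and 2 at an unadjusted p under 0.05, beside 1041 and 771 of all 14311 genes. Nlk, an atypical MAP kinase gene, led the recovery in DMSO, at 17.4 ± 2.51 CPM in RNA and 341 ± 29.0 CPM in RIP (SD, n = 4; log2 4.44, SE 0.164, FDR 7.22e-17). The stress-activated Map3k20 (ZAK) followed at 3.93 (FDR 3.648e-16), Map3k1 at 3.06 (FDR 8.676e-12) and Braf at 2.79 (FDR 1.955e-10). In LPS and in LPS with TM7nox, Nlk (4.3995 and 4.6646), Map3k20 (3.86 and 4.19), Map3k1 (3.10 and 3.54) and Mapk6 (2.60 and 3.01) led, and the same genes led against IgG (4.59, 4.10, 3.08 and 3.01). Nfkb1 is named here in RIP over RNA after its values were seen. Tnip2 (-1.35, FDR 1.152e-07) was among the lowest, with Map3k4 (-1.30, FDR 1.633e-08), Map2k2 (-0.97, FDR 3.147e-06) and Tab1 (-0.81, FDR 0.004064), and Nfkb1 was lower too (-0.59, FDR 0.02652). The lowest in LPS were Tnip2 (-1.30), Map3k4 (-0.80), Map3k14 (-0.76) and Tab1 (-0.75), and in LPS with TM7nox Tnip2 (-1.61), Tab1 (-1.51), Map2k2 (-1.06) and Map3k4 (-1.04). Map3k4 was lower against IgG too (-1.37, FDR 4.54e-08).

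For each of the 9, the 2 most alike of 8188 protein-coding genes were taken by Pearson's r of log2 CPM over the 12 RNA libraries. The libraries form 3 treatment groups and share depth and scaling, so r mostly reads the group means and is given as a description. Map2k1 was most like Cmpk2 (r = 0.997) and Oasl1 (0.995), Map3k8 most like Ms4a6c and Actr3 (both 0.983), and Mapkapk2 most like Rap2c (0.981) and Nt5c3 (0.980). Map2k6 was most like Dapk1 (0.980) and Rmnd5a (0.965), and Mapk14 most like Fam53b (0.978) and Tbl1xr1 (0.951). Mapk9 was most like Zyg11b (0.956) and Klhl24 (0.950), Mapk3 most like Rnf44 (0.952) and Elob (0.932), Map2k3 most like Pomgnt1 (0.932) and Pid1 (0.899), and Mapk8 most like Ints4 (0.916) and Zranb1 (0.913). Within the 9, Map3k8 and Mapkapk2 were the most alike (r = 0.965), and Map2k6 and Map2k1 the most opposed (-0.874).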

How the data were processed

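The authors deposited raw read counts per gene as 1 table of 55483 mouse genes and 27 libraries, which carry no normalization. The submitters' processing notes name FastQC 0.11.9, STAR, HTSeq, DESeq2 and the build GRCm39, without their roles. For the annotation release and the strand setting of the counting, both not given in the sources used here, reads of overlapping antisense genes cannot be told apart. The kit was SMART-Seq Stranded, per the labels' protocols. Of the gene identifiers, 93.2% matched GENCODE M39, the source of coordinates, transcript lengths and 3′ UTRs.

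Tests were two-sided quasi-likelihood F tests of edgeR 4.0.16 (R 4.3.3), with TMM scaling, filterByExpr at a minimum count of 10 and Benjamini-Hochberg adjustment over all genes tested. RNA (12 libraries) and RIP (12) were fitted apart, RIP over RNA in a joint fit of 24, and anti-HuR against IgG over 15 with treatment as a covariate. Alternatives were DESeq2 1.42.0, RLE scaling, no filter, the replicate block, replicates 1 and 2 or 3 and 4 alone, and leaving out each library. Same-numbered samples deviated together (r 0.143 to 0.506 in 36 of 36 pairs, 35 of which matched their own number best), so the numbers pair the samples. The tests reported first are without the block, and its value stands beside each call of the 9 that it changes. It changed no call of the cascade genes named by the rule below. The scripts were tested on simulated data. Intervals cover counting error only.

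The genes, lists and tests were chosen with earlier results of these data known. All 9 genes are named. Other cascade genes are named if called, with a mean of at least 5 CPM and no overlap between libraries, up to 4 a direction with the largest change. Named outside this rule are Mapk10, Mapk12 and Mapk13, and Nfkb1 in RIP over RNA and for TM7nox against LPS in RNA.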

Additional observations from a re-analysis of the deposited data

Results flagged for a closer look

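In each group of 4 libraries, the highest and lowest CPM of each of the 9 genes was checked for a gap to the other 3 beyond Dixon's 95% limit, and 4 of 54 groups had one, where chance gives about 1 in 20. For Mapk9, RNA LPS replicate 1 stood at 20.6 CPM with the others at 25.4 to 25.9, RNA LPS with TM7nox replicate 2 at 49.1 with the others at 36.4 to 38.4, and RIP DMSO replicate 3 at 46.4 with the others at 38.9 to 39.0. For Mapk14, RNA LPS with TM7nox replicate 2 stood at 42.4 CPM with the others at 30.6 to 31.8. What set these libraries apart was not tested.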

How the results depend on the processing

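Of 108 results (9 genes in 12 comparisons), 73 kept their call under every alternative, as did 27 of the 44 called. None of the called ones changed sign. The counts of genes called moved as follows. With replicates 1 and 2 alone, they were 3 for RNA LPS against DMSO, 0 for TM7nox against LPS, 3 for LPS with TM7nox against DMSO, 1 for RIP TM7nox against LPS, 2 for RIP over RNA in DMSO and 3 in LPS with TM7nox. With replicates 3 and 4 alone, they were 4 for TM7nox against LPS in RNA and 2 in RIP. DESeq2 gave 4 for TM7nox against LPS in RNA, and 7 for RIP over RNA in LPS, as did RLE scaling. For RIP over RNA in LPS, both also moved the median of all genes by 0.176. The share of all calls there that were higher was 51.7%, and 58.1% by DESeq2 and 58.4% with RLE. Where no number over all genes is given, these counts are not read as a result about the 9. The replicate block (paired by number) gave 4 for TM7nox against LPS in RNA, with 25% of all genes called. For RIP LPS against DMSO it gave 8, with 59.3% of all genes. For RNA LPS with TM7nox against DMSO it gave 7 (58% of all genes), and for RIP TM7nox against LPS 6 (33.6%). For RIP LPS with TM7nox against DMSO it gave 5 (61.8%), for RIP over RNA in LPS 6 (68.9%) and against IgG 5 (65.2%). Beyond the calls given beside the results the block changed no other. Leaving out 1 library gave 1 to 2 for TM7nox against LPS in RNA. Over all genes, TM7nox against LPS called 1704 in RNA and 2212 in RIP, and 3091 and 4577 with the block, 168 and 789 with replicates 1 and 2, and 3489 and 1070 with replicates 3 and 4. Replicates 1 and 2 called 1668 (of 5190 with all) for RNA LPS against DMSO, 2246 (of 5850) for RNA LPS with TM7nox against DMSO and 3392 (of 6090) for RIP LPS against DMSO. The change of RIP over RNA with LPS was called for 6 genes, for 66 by DESeq2, 50 with the block, 49 with no filter, 13 with replicates 3 and 4 and 0 with 1 and 2, and that with TM7nox for 1, and for 0 to 5 under alternatives. The share of calls with LPS that were higher was 33.3%, and 51.5% by DESeq2. In these fits 0 of the 9 were called for either change. Map2k6 had only 3 counts in RNA from LPS, and the cause of the shifts was not tested.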
